A study of Homo sapiens with 12 samples.

Results

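The 7 genes described here encode regulators of newborn neurons and fall into 4 families: the RNA-binding proteins ELAVL2, ELAVL3 and ELAVL4 (HuB, HuC and HuD), the basic helix-loop-helix (bHLH) factors NHLH1 and NHLH2, the homeobox factor ONECUT2 and the zinc finger factor MYT1. They were chosen by name, with earlier results of these data known. Every probe that the array annotation gives to one of them was taken, which gave 14 of the 47322 probes on the array. Of these, 10 probes of 6 genes passed a filter on dim signal, and these 6 were among the 11280 genes tested. ELAVL4 did not pass and was described only. ELAVL2, ELAVL4, NHLH1 and MYT1 had 1 probe each on the array listing, ELAVL3 and NHLH2 had 2, and ONECUT2 had 6.

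The study derived neural cells from H9, an established line of human embryonic stem cells, and measured gene expression on Illumina HT-12 bead arrays in 4 groups of 3 arrays. NPC-NC cells were taken through neural crest induction without feeder cells and sorted at day 18 for the surface antigens HNK1 and p75. MS5-NC cells were induced on MS5, a stromal feeder line, and sorted in the same way at day 35. The sox10-NC cells came from Wnt induction of a line carrying a SOX10::GFP reporter and were sorted for GFP at day 11. The LSB cells, called neuroepithelial and unsorted in the labels, were taken at day 11. Induction differs between all groups, day between all but sox10-NC and LSB, and sort between all but NPC-NC and MS5-NC. A reporter line is described for sox10-NC only. Those factors that differ in a comparison cannot be told apart in it. The comparisons with LSB share its 3 arrays. The arrays are numbered as biological replicates, with nothing on whether they came from separate differentiations. The p-values therefore measure only the spread between these arrays, pooled over the 4 groups.

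In newborn neurons the neuronal ELAVL proteins bind AU-rich elements in RNA and act on its stability, splicing and translation, and antibodies to HuC and HuD are widely used to mark neurons. NHLH1 and NHLH2 bind E-boxes as partners of the E proteins, and their genes are transiently active as progenitors leave the cell cycle. Onecut factors act in motor, spinal and retinal neurons, and MYT1 family proteins bind a short DNA motif through CCHC zinc fingers and act in neuronal differentiation, in part by repressing progenitor genes.

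RefSeq promoter windows, from 250 bases before to 50 bases after each listed transcription start, were available for 6 of the 7 members (all but ELAVL3), in 18 windows. Those of NHLH1, ONECUT2 and MYT1, the members with 1 listed start, are shown because these 3 genes were higher in NPC-NC and MS5-NC than in LSB, as described below in the order of their roles. Build GRCh38.p14 places them on the plus strand at chr1:160366821-160367120 for NHLH1, chr18:57435124-57435423 for ONECUT2 and chr20:64164202-64164501 for MYT1. Capitals mark E-boxes, the letters CANNTG that bHLH dimers bind, searched on both strands, where a CAGATG counts in either orientation and every CAGCTG or CAGATG is also an E-box.
NHLH1: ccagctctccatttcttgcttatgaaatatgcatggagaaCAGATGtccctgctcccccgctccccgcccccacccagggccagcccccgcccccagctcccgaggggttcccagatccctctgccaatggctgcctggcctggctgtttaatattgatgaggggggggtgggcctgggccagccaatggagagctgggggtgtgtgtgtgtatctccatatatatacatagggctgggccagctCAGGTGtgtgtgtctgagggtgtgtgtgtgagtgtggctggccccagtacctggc
ONECUT2: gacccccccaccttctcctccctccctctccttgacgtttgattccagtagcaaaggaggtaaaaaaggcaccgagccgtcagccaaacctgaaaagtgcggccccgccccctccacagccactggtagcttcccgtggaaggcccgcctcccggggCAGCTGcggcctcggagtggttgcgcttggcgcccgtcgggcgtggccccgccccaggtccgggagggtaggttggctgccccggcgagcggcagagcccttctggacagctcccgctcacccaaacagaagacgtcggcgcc
MYT1: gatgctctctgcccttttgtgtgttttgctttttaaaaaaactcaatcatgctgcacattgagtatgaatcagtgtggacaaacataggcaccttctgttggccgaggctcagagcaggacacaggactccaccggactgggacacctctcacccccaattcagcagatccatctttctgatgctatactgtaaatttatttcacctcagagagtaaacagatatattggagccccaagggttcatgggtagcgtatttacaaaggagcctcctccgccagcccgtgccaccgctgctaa
The NHLH1 window holds 2 E-boxes, 1 of them CAGATG. The ONECUT2 window holds 1, which is CAGCTG, and the MYT1 window holds 0. Over all members, 12 of the 18 windows hold at least 1 E-box, against 68.7% of 35116 windows of this length over all genes. CAGCTG occurs in 17.9% and CAGATG in 14.7% of all windows. GC content of the member windows ran from 37.0% to 74.3%, around an all-gene median of 58.7%.

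Each array detected 14616 to 17101 probes, or 30.9% to 36.1% of all, at a detection p-value under 0.01, with a median of 18 to 22 beads behind a probe. The number of arrays and beads limits the precision. Levels are log2 intensities after background correction and quantile normalisation. A gene was called when limma's moderated test gave a Benjamini-Hochberg adjusted p under 0.05 over all 11280 genes, the change was at least 2-fold, and the group with the higher mean had at least 2 arrays where the gene was detected. The LSB arrays carried the neural progenitor markers SOX2 (11.71 ± 0.14, SD, n = 3), PAX6 (9.04 ± 0.07) and HES5 (11.89 ± 0.10). LIN28A, listed as both a progenitor and a pluripotency marker, averaged 11.95 in LSB, and the progenitor marker SOX1 was detected on no array. NPC-NC and MS5-NC also carried SOX2 (11.05 and 11.4), PAX6 (8.55 and 9.03) and HES5 (12.2 and 12.07). SOX10, TFAP2B and FOXD3, which define neural crest, were detected on all 3 sox10-NC arrays and on no NPC-NC, MS5-NC or LSB array, so they were not detected in NPC-NC and MS5-NC, whose labels also name neural crest. SOX10 chose the sox10-NC cells and is no finding there. All 9 tested genes of an 11-gene neural crest list, SOX10 among them, were higher in sox10-NC than in LSB. In NPC-NC or MS5-NC over LSB, 0 were called. The median log2 changes were 3.27 in sox10-NC, -0.06 in NPC-NC and -0.10 in MS5-NC. SOX10, TFAP2B and FOXD3 passed the filter only through the sox10-NC arrays, so their rise there is no finding. Without sox10-NC array 1 they were not tested, and all 6 genes of the list still tested were higher in sox10-NC than in LSB (median 2.56). Of this list, NGFR, which encodes p75, was detected on 2 NPC-NC, 0 MS5-NC and 3 sox10-NC arrays. The probe used for ETS1 was detected on all 12 arrays, and that for ERBB3 on 3 NPC-NC and 1 MS5-NC arrays.

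In NPC-NC over LSB, 5 of the 6 tested members were higher and 0 lower, beside 10.2% higher and 4.84% lower of all genes tested (15.0% in either direction). In MS5-NC over LSB, the same 5, ELAVL3, NHLH1, NHLH2, ONECUT2 and MYT1, were higher and 0 lower, beside 13.0% higher and 7.85% lower of all genes (20.9% in either direction). In sox10-NC over LSB, ELAVL2, ELAVL3, NHLH1 and ONECUT2 were higher, 4 of the 6, and 0 lower, beside 9.77% higher and 8.64% lower of all genes (18.4% in either direction). The members' median log2 change was 1.79 in NPC-NC, 2.20 in MS5-NC and 1.52 in sox10-NC over LSB, where the median over all genes was 0.01, 0 and -0.02. With NHLH1 set at its lower bound in LSB, the members' medians were 1.77, 1.90 and 1.19. The members were chosen with earlier results of these data known, so their counts beside the shares of all genes are a description. In bulk RNA, fewer cells of a type and less RNA per cell cannot be told apart.

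**Figure D1:**
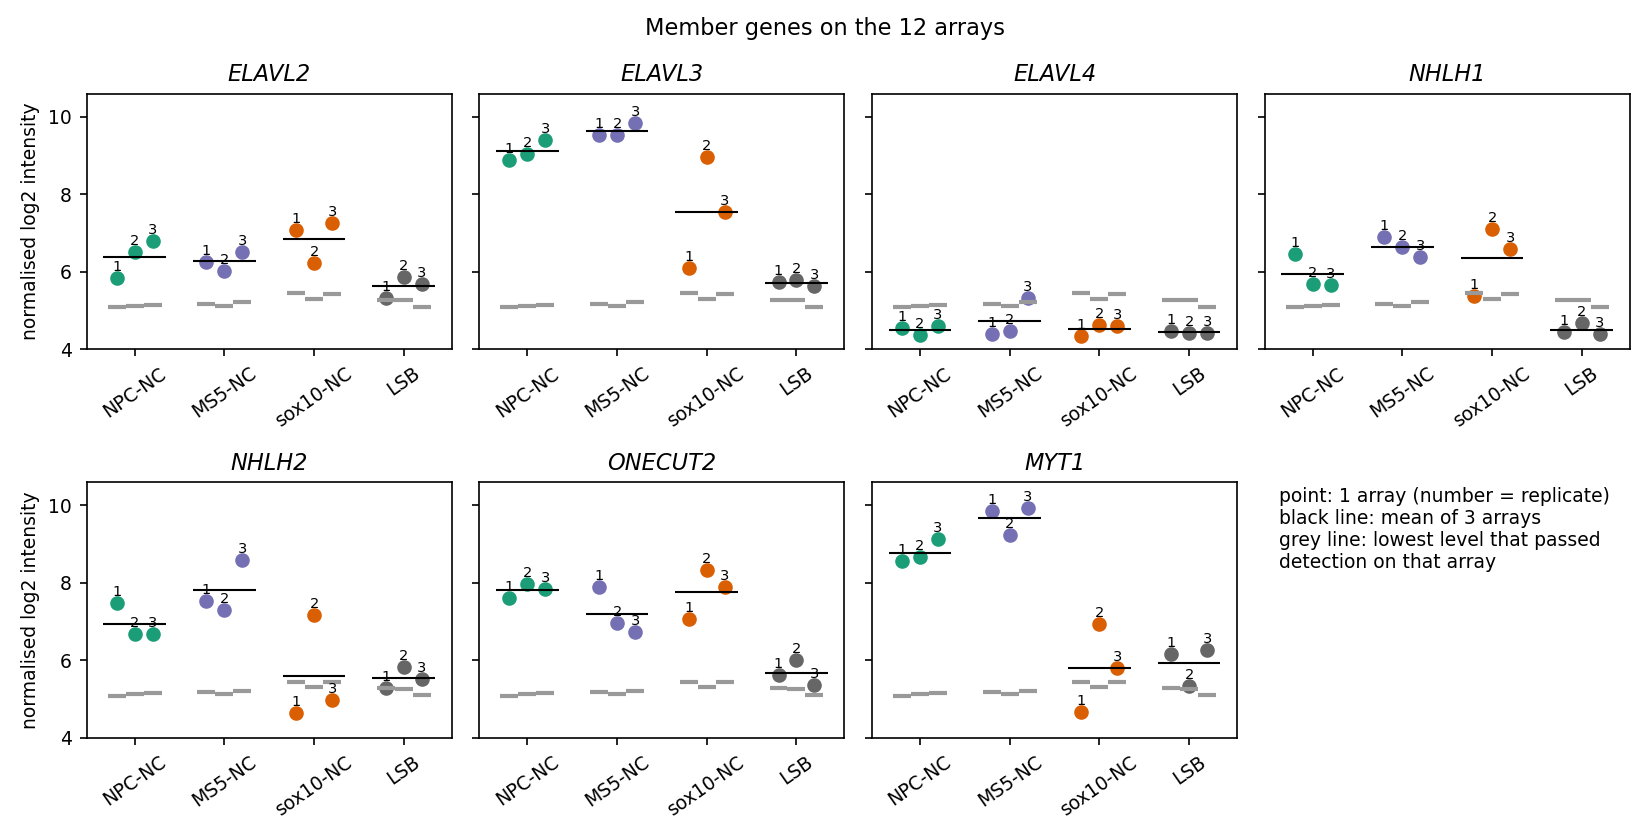
Normalised log2 intensity (vertical axis) of the 7 members on each array, with 1 point per array numbered by replicate, the group mean as a black line and the detection floor of each array as a grey line. ELAVL3 and MYT1 on the NPC-NC and MS5-NC arrays stood above 8.5, all above the LSB arrays, whereas ELAVL4 passed detection on 1 array.

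ELAVL3 (HuC), which forms with HuD the antigen pair used as a pan-neuronal marker, was higher in all 3 groups than in LSB. Its log2 level was 8.89, 9.04 and 9.39 on the NPC-NC arrays and 9.52, 9.52 and 9.85 on the MS5-NC arrays, against 6.11, 8.95 and 7.55 on the sox10-NC arrays and 5.73, 5.78 and 5.64 on the LSB arrays. The LSB arrays lay close together and below every other array, and the sox10-NC arrays spread over most of the range between LSB and NPC-NC. Over LSB it was 10.5-fold higher in NPC-NC (log2 3.39 ± 0.44, SE, limma adjusted p = 2.1e-05), 15.1-fold higher in MS5-NC (3.92 ± 0.44, adjusted p = 2.84e-06) and 3.53-fold higher in sox10-NC (1.82 ± 0.44, adjusted p = 0.00386). The order of its means was MS5-NC, NPC-NC, sox10-NC and LSB, and MS5-NC and NPC-NC, whose arrays did not overlap, did not differ by the test (NPC-NC over MS5-NC, log2 -0.53, 95% interval -1.45 to 0.40, limma adjusted p = 0.745).

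Against sox10-NC, ELAVL3 was 2.97-fold higher in NPC-NC (log2 1.57 ± 0.44, limma adjusted p = 0.0143) and 4.27-fold higher in MS5-NC (2.09 ± 0.44, adjusted p = 0.00142). NPC-NC array 1 lay just below sox10-NC array 2, so the first pair of groups overlapped, and the second did not. The call in NPC-NC over sox10-NC was lost without sox10-NC array 1 (log2 0.86, limma adjusted p = 0.0722) and without NPC-NC array 3 (1.43, adjusted p = 0.0614). It was also lost with only those groups fitted (1.57 ± 0.53, limma adjusted p = 0.0602). The SE of 0.44 is pooled over all groups, although the SD of ELAVL3 was 1.42 in sox10-NC and 0.07 in LSB. In MS5-NC over sox10-NC the change was 1.38 without sox10-NC array 1 and 2.80 without array 2, called both times, and in sox10-NC over LSB it was 2.54 without array 1 and 1.12 without array 2, again called both times.

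The second ELAVL3 probe gave 6.22, 6.56 and 6.55 on the NPC-NC arrays and 6.60, 6.74 and 6.29 on the MS5-NC arrays, against 4.68, 6.63 and 4.85 on the sox10-NC arrays and 4.55, 4.48 and 4.80 on the LSB arrays. It was detected on every NPC-NC and MS5-NC array, on sox10-NC array 2 alone of its group, and on no LSB array. In a fit of all detected probes its rise over LSB was at least 2.34-fold in NPC-NC and at least 2.51-fold in MS5-NC (limma adjusted p = 0.00127 and 0.000521). Such bounds set the group with no detection at the lowest level that passes detection on its arrays. In sox10-NC over LSB the second probe was not called (log2 0.78, limma adjusted p = 0.115).

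ELAVL2 (HuB), which is also made outside the nervous system, in germ cells, differed in pattern from ELAVL3. Its log2 level was 5.84, 6.52 and 6.79 on the NPC-NC arrays, 6.26, 6.03 and 6.52 on the MS5-NC arrays and 7.08, 6.23 and 7.25 on the sox10-NC arrays, against 5.33, 5.86 and 5.68 on the LSB arrays. It was detected on all 12 arrays, and the sox10-NC and MS5-NC arrays all lay above those of LSB, whereas NPC-NC array 1 lay within the LSB range. ELAVL2 was 2.34-fold higher in sox10-NC than in LSB (log2 1.23 ± 0.30, limma adjusted p = 0.00368). NPC-NC over LSB (0.76, 95% interval 0.14 to 1.38, limma adjusted p = 0.0623) and MS5-NC over LSB (0.64, 0.02 to 1.26, adjusted p = 0.0941) did not pass. Its means ran from sox10-NC through NPC-NC and MS5-NC to LSB. NPC-NC did not differ from sox10-NC by the test (log2 -0.47, 95% interval -1.09 to 0.15, limma adjusted p = 0.28), nor did MS5-NC (-0.59, -1.21 to 0.03, adjusted p = 0.15). NPC-NC over MS5-NC gave 0.11 (95% interval -0.51 to 0.73, limma adjusted p = 0.94). The sox10-NC call was lost without background correction (log2 0.61), with an offset of 50 (0.85) and with median scaling in place of quantile normalisation (0.92), and NPC-NC over LSB was called without NPC-NC array 1 (1.03, limma adjusted p = 0.019).

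ELAVL4 (HuD), the D of the HuC/D name, was at background. Its only probe read 4.55, 4.38 and 4.59 on the NPC-NC arrays, 4.40, 4.47 and 5.32 on the MS5-NC arrays and 4.35, 4.62 and 4.59 on the sox10-NC arrays, against 4.48, 4.41 and 4.43 on the LSB arrays. MS5-NC array 3 alone passed detection, and the other 11 arrays lay between 4.35 and 4.62. With 1 probe, a reading near background gives only an upper bound on the level, and no comparison was made for this gene.

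NHLH1, a bHLH factor of newborn neurons, was not well above background on any LSB array and was detected in the other groups. Its log2 level was 6.47, 5.69 and 5.65 on the NPC-NC arrays, 6.91, 6.64 and 6.39 on the MS5-NC arrays and 5.37, 7.11 and 6.59 on the sox10-NC arrays, against 4.45, 4.67 and 4.40 on the LSB arrays. Every array of the other groups lay above the LSB arrays, and sox10-NC array 1 did not pass detection. NHLH1 was at least 1.65-fold higher in NPC-NC than in LSB (log2 1.43 ± 0.34, limma adjusted p = 0.00477), at least 2.7-fold in MS5-NC (2.14 ± 0.34, adjusted p = 0.000121) and at least 2.21-fold higher in sox10-NC (1.86 ± 0.34, adjusted p = 0.000456). Without sox10-NC array 2 or array 3 the gene was detected on 1 of the remaining sox10-NC arrays and was not called (log2 1.5 and 1.75). Without background correction the call was lost in all 3 comparisons (log2 0.56 in NPC-NC, 0.91 in MS5-NC and 0.80 in sox10-NC), and with an offset of 50 it was lost in NPC-NC (0.76).

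The NHLH1 means were 6.65 ± 0.26 in MS5-NC, 6.36 ± 0.89 in sox10-NC, 5.94 ± 0.47 in NPC-NC and 4.51 ± 0.15 in LSB (SD, n = 3 each). No neighbours above LSB differed by the test. NPC-NC over sox10-NC gave a log2 change of -0.42 (95% interval -1.15 to 0.30, limma adjusted p = 0.424), MS5-NC over sox10-NC 0.29 (-0.44 to 1.01, adjusted p = 0.571) and NPC-NC over MS5-NC -0.71 (-1.43 to 0.01, adjusted p = 0.504).

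NHLH2, the paralog whose loss in mice leads to hypogonadism and obesity, was at its highest in MS5-NC and at its lowest on 2 of the sox10-NC arrays. Its log2 level was 7.48, 6.67 and 6.69 on the NPC-NC arrays and 7.54, 7.30 and 8.58 on the MS5-NC arrays, against 4.64, 7.17 and 4.97 on the sox10-NC arrays and 5.29, 5.82 and 5.52 on the LSB arrays. Within sox10-NC, array 2 alone passed detection and stood among the NPC-NC arrays, and arrays 1 and 3 lay below every LSB array. NHLH2 was 4.79-fold higher in MS5-NC than in LSB (log2 2.26 ± 0.48, limma adjusted p = 0.00134) and 4.63-fold higher than in sox10-NC (2.21 ± 0.48, adjusted p = 0.00189). The MS5-NC over sox10-NC change was 3.01 without sox10-NC array 2, and was called.

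In NPC-NC over LSB, NHLH2 was 2.64-fold higher (log2 1.40 ± 0.48, limma adjusted p = 0.0362), close to the threshold. That call was lost when any 1 of the 3 NPC-NC or 3 LSB arrays was left out (limma adjusted p = 0.0544 to 0.126), without background correction (log2 0.69) and with an offset of 50 (0.97). NPC-NC over sox10-NC did not pass (log2 1.35, 95% interval 0.34 to 2.36, limma adjusted p = 0.0515) and was called without sox10-NC array 2 (2.15, adjusted p = 0.000202), without MS5-NC array 3, whose spread enters the shared fit (1.36), and with median scaling (1.49). The sox10-NC and LSB groups gave a difference of 0.05 (95% interval -0.96 to 1.06, limma adjusted p = 0.948), and -0.75 without sox10-NC array 2. NPC-NC over MS5-NC gave -0.86 (95% interval -1.87 to 0.15, limma adjusted p = 0.578).

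The second NHLH2 probe averaged 5.26 ± 0.29 in NPC-NC, 5.73 ± 0.59 in MS5-NC, 5.01 ± 0.76 in sox10-NC and 4.80 ± 0.45 in LSB (SD, n = 3 each). It was detected on 2, 3, 1 and 1 arrays of these groups, close to background, and was called in none of the 6 comparisons. Its log2 change was 0.92 in MS5-NC over LSB (limma adjusted p = 0.0499, under 2-fold) and 0.46 in NPC-NC over LSB (adjusted p = 0.366), so the NHLH2 calls rest on 1 of its 2 probes.

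ONECUT2, a cut homeodomain factor of neurons and of endoderm, was higher in all 3 groups than in LSB. Its log2 level was 7.60, 7.98 and 7.83 on the NPC-NC arrays, 7.88, 6.95 and 6.74 on the MS5-NC arrays and 7.07, 8.33 and 7.90 on the sox10-NC arrays, against 5.63, 6.0 and 5.35 on the LSB arrays. No array of the other groups overlapped LSB, and the other groups overlapped one another. The gene was 4.41-fold higher in NPC-NC (log2 2.14 ± 0.32, limma adjusted p = 0.000101), 2.88-fold higher in MS5-NC (1.53 ± 0.32, adjusted p = 0.00131) and 4.3-fold higher in sox10-NC (2.11 ± 0.32, adjusted p = 7.53e-05). The call in MS5-NC was lost without background correction (log2 0.81). NPC-NC and sox10-NC differed by 0.04 (95% interval -0.64 to 0.72, limma adjusted p = 0.958). MS5-NC over sox10-NC was -0.58 (95% interval -1.26 to 0.10, limma adjusted p = 0.196), and NPC-NC over MS5-NC 0.61 (-0.07 to 1.29, adjusted p = 0.549).

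Of the 6 ONECUT2 probes, 3 were detected on all 12 arrays and 3 on none. A further detected probe averaged 7.74 ± 0.45 in NPC-NC, 6.72 ± 0.34 in MS5-NC, 7.85 ± 1.04 in sox10-NC and 5.55 ± 0.27 in LSB, and the last 8.12 ± 0.59, 7.14 ± 0.87, 7.29 ± 1.05 and 5.64 ± 0.08 in the same groups (SD, n = 3 each). Each was called higher in NPC-NC, MS5-NC and sox10-NC than in LSB, so all 3 detected probes had the same direction there. They parted on MS5-NC over sox10-NC, where the first of these 2 was called lower (log2 -1.14, limma adjusted p = 0.0333) and the other was not (-0.15, adjusted p = 0.84).

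**Figure D2:**
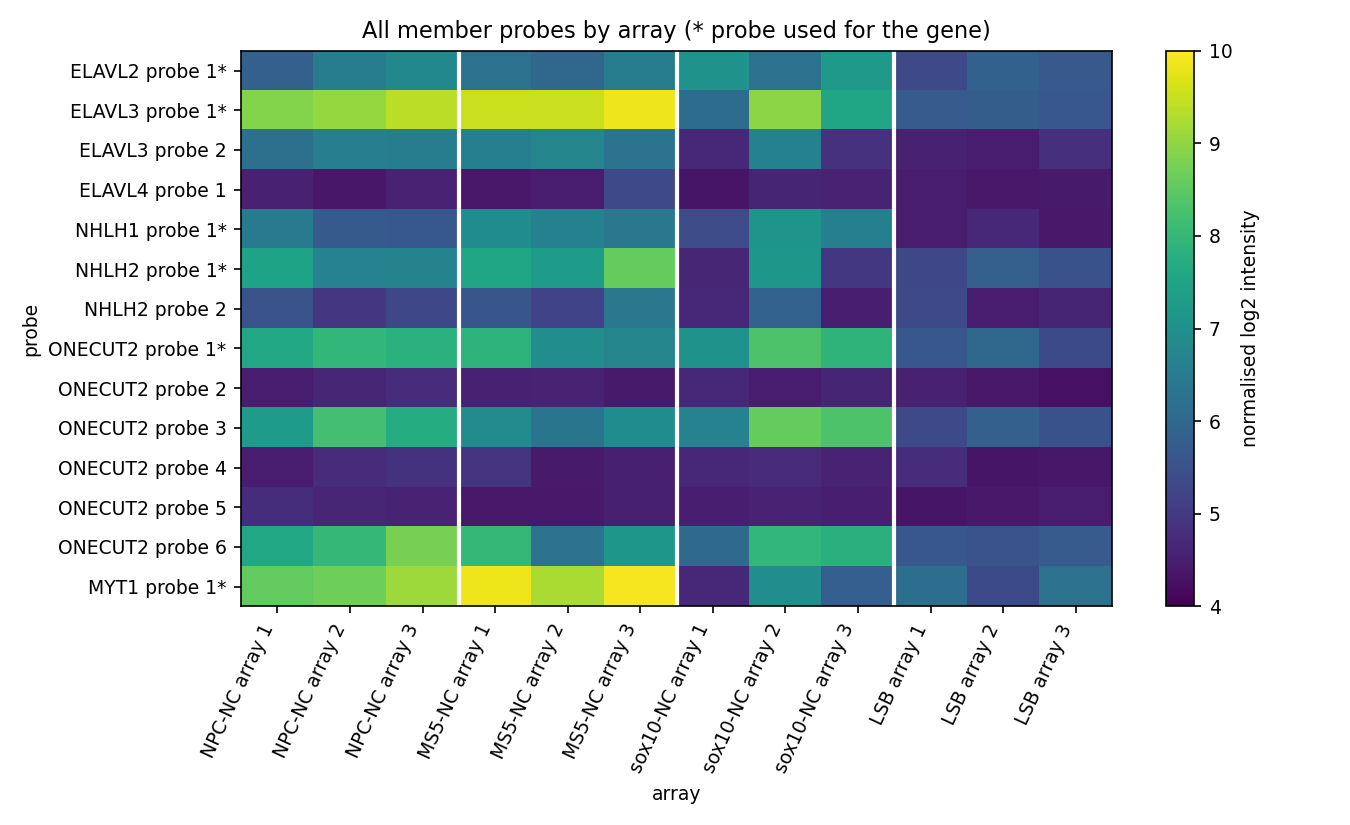
Normalised log2 intensity (colour) of all 14 member probes (vertical axis) on the 12 arrays (horizontal axis), where an asterisk marks the probe used for a gene and white lines part the groups. ONECUT2 probes 2, 4 and 5 and the ELAVL4 probe stayed dark, and ELAVL3, NHLH2, MYT1 and the detected ONECUT2 probes were lower on sox10-NC array 1 than on array 2.

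MYT1, a zinc finger factor that acts in newborn neurons and in endocrine cells, was higher in both HNK1+/p75+ groups than in either other group. Its log2 level was 8.55, 8.67 and 9.12 on the NPC-NC arrays and 9.85, 9.23 and 9.92 on the MS5-NC arrays, against 4.66, 6.93 and 5.79 on the sox10-NC arrays and 6.17, 5.34 and 6.26 on the LSB arrays. Every NPC-NC and MS5-NC array stood above every sox10-NC and LSB array, and sox10-NC array 1 did not pass detection. Over LSB it was 7.25-fold higher in NPC-NC (log2 2.86 ± 0.41, limma adjusted p = 6.04e-05) and 13.4-fold higher in MS5-NC (3.74 ± 0.41, adjusted p = 2.19e-06). Over sox10-NC it was 7.93-fold higher in NPC-NC (2.99 ± 0.41, limma adjusted p = 2.55e-05) and 14.6-fold higher in MS5-NC (3.87 ± 0.41, adjusted p = 9.5e-07).

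MYT1 in sox10-NC differed from LSB by a log2 change of -0.13 (95% interval -0.99 to 0.73, limma adjusted p = 0.839), and by 0.44 without sox10-NC array 1. MS5-NC and NPC-NC, the top neighbours, did not overlap, and NPC-NC over MS5-NC gave -0.88 (95% interval -1.75 to -0.02, unadjusted p = 0.0448, limma adjusted p = 0.497).

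**Figure D3:**
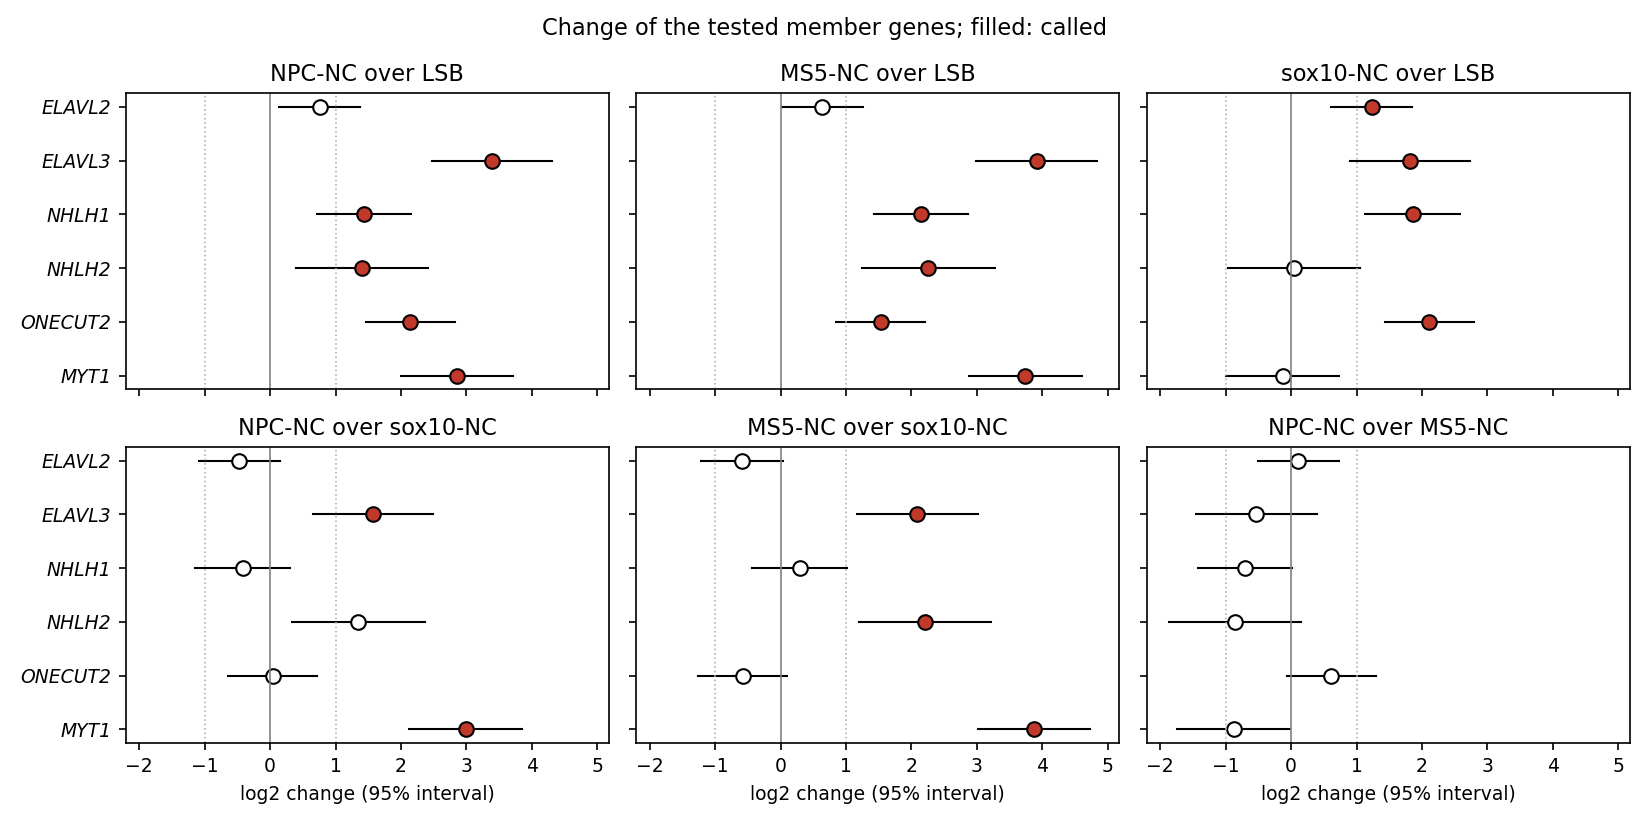
Log2 change (horizontal axis) of the 6 tested members with its 95% interval in each of the 6 comparisons, filled where called, with dotted lines at a 2-fold change. MYT1 was called in 4 comparisons, those that set NPC-NC or MS5-NC against LSB or sox10-NC, and no member was called in NPC-NC over MS5-NC.

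Between the HNK1+/p75+ groups and sox10-NC, 2 of the 6 tested members, ELAVL3 and MYT1, were higher in NPC-NC, beside 9.31% higher and 4.73% lower of all genes (14.0% in either direction). In MS5-NC over sox10-NC, 3 of the 6, ELAVL3, NHLH2 and MYT1, were higher, beside 10.8% higher and 6.57% lower of all genes (17.3% in either direction). The members' median log2 change was 0.69 in NPC-NC and 1.19 in MS5-NC over sox10-NC, with 0.01 and 0 over all genes. In NPC-NC over MS5-NC, 0 of the 6 were called by limma, 1 (MYT1) had an unadjusted p under 0.05, and 0.0798% of all genes were called, 0.0355% higher and 0.0443% lower. The members' median there was -0.62, beside 0.01 over all genes. The share of higher genes among all calls moved with the scaling: quantile normalisation gave 67.8%, 62.4%, 53.1%, 66.3%, 62.1% and 44.4% in NPC-NC, MS5-NC and sox10-NC over LSB, NPC-NC and MS5-NC over sox10-NC and NPC-NC over MS5-NC, and median scaling gave 48.2%, 33.6%, 23.0%, 79.2%, 69.2% and 60.0% in that order.

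The sox10-NC arrays differed from one another in most members at once. Array 1 lay below its group mean by a log2 value of -1.42 for ELAVL3, -1.13 for MYT1, -0.99 for NHLH1, -0.95 for NHLH2 and -0.69 for ONECUT2, and array 2 lay above it by 1.41, 1.14, 0.75, 1.57 and 0.56 for the same genes. ELAVL2 went the other way, at 0.23 above the mean on array 1 and -0.62 on array 2. The summed normalised intensity of the 13 tested genes of a 14-gene neuron marker list was 3450 on sox10-NC array 1, 8190 on array 2 and 6380 on array 3, beside 13200 to 15800 on the NPC-NC arrays, 16300 to 20800 on the MS5-NC arrays and 2910 to 3310 on the LSB arrays. The 9 tested neural crest markers, with SOX10, TFAP2B and FOXD3 tested only through the sox10-NC arrays, summed to 8210 on sox10-NC array 1, 6050 on array 2 and 7330 on array 3. Their sums were 215 to 639 on the NPC-NC, 413 to 448 on the MS5-NC and 423 to 509 on the LSB arrays. The 10 tested neural progenitor markers summed to 25600 to 26500 on the NPC-NC, 24200 to 29900 on the MS5-NC and 9320 to 11900 on the sox10-NC arrays, against 22100 to 24800 on the LSB arrays. RBFOX3, which encodes the neuronal antigen NeuN, was the neuron marker detected on no array. The part of these marker levels in the members' changes was not tested.

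The paralogs outside the 7 did not all follow their relatives. ELAVL1 (HuR), the ubiquitous Hu protein, averaged 7.78 ± 0.22 in NPC-NC, 8.46 ± 0.22 in MS5-NC, 7.11 ± 0.63 in sox10-NC and 6.44 ± 0.30 in LSB (SD, n = 3 each). It was higher than in LSB in NPC-NC (log2 1.34, limma adjusted p = 0.00189) and in MS5-NC (2.02, adjusted p = 3.19e-05), and was not called in sox10-NC (0.67, adjusted p = 0.0771). ST18, a MYT1 paralog, was detected on all 3 NPC-NC and all 3 MS5-NC arrays and on no sox10-NC or LSB array. Its rise over LSB was at least 2.43-fold in NPC-NC and at least 3.32-fold in MS5-NC (limma adjusted p = 7.01e-05 and 4.03e-06). MYT1L, the other paralog, was detected on 2 NPC-NC, 3 MS5-NC, 0 sox10-NC and 0 LSB arrays, and was at least 1.44-fold higher in MS5-NC than in LSB (limma adjusted p = 0.00213), with its second probe detected on none. ONECUT1 was detected on 1 NPC-NC, 0 MS5-NC, 2 sox10-NC and 0 LSB arrays and was called in no comparison, and ONECUT3 was detected on no array.

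Lists of genes around the members gave their context. Of 14 tested RNA-binding and splicing regulators, 5 were higher in NPC-NC, 4 in MS5-NC and 3 in sox10-NC than in LSB, and 0, 0 and 1 were lower (1 in MS5-NC with median scaling). Their median log2 change was 0.46, 0.61 and 0.60, or 0.42, 0.33 and 0.61 with genes undetected in 1 group at their bound and genes undetected in both left out, as in the medians at bounds that follow. CELF3, a neuronal splicing regulator, averaged 8.41 ± 0.10 in NPC-NC and 8.97 ± 0.22 in MS5-NC, against 5.54 ± 0.73 in sox10-NC and 5.06 ± 0.33 in LSB, and rose by a log2 change of 3.35 and 3.91 in NPC-NC and MS5-NC over LSB (limma adjusted p = 4.42e-07 and 5.35e-08). SRRM4, which promotes neuronal microexons, was not detected in LSB and was at least 1.98-fold higher in NPC-NC, 2.79-fold in MS5-NC and 2.51-fold in sox10-NC (limma adjusted p = 0.00262, 0.000227 and 0.000442).

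Of 11 tested genes known as targets of neuronal ELAVL proteins, 5 were higher in each of NPC-NC, MS5-NC and sox10-NC over LSB, and 0, 0 and 1 were lower. The median was 0.63, 0.95 and 0.59, or 0.41, 0.85 and 1.05 at bounds. In sox10-NC the higher genes numbered 3 without array 2 and 3 with median scaling. FOS was among the higher genes in each group, by a log2 change of 3.43 in NPC-NC, 4.14 in MS5-NC and 3.99 in sox10-NC (limma adjusted p = 8.72e-06, 7.53e-07 and 6.31e-07). MAPT, which encodes the microtubule protein tau, rose at least 8.22-fold in NPC-NC and at least 16.7-fold in MS5-NC over LSB (limma adjusted p = 5.52e-08 and 1.75e-09). MAPT was not called in sox10-NC over LSB (log2 0.59, limma adjusted p = 0.111). Of its other probes, 1 was detected on 1 NPC-NC, 1 MS5-NC and 1 LSB array, and the rest on no array. BDNF, a neurotrophin, was at least 3.04-fold higher in sox10-NC than in LSB (limma adjusted p = 4.32e-05) and not called in NPC-NC (0.45, adjusted p = 0.34) or MS5-NC (0.26, adjusted p = 0.569). The BDNF probe used was detected on 3 sox10-NC arrays and 1 NPC-NC array, and the other BDNF probes on no array.

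A list of 14 proneural bHLH factors and E proteins, the partners of NHLH1 and NHLH2 among them, had 7 tested genes. Of these, 2 were higher in each of the 3 groups over LSB, and 1 was lower in sox10-NC. The median was 0.28, 0.48 and -0.49, or 0.28, 0.48 and -0.11 at bounds, so in sox10-NC it was below 0 although more genes were called higher than lower. The higher count in sox10-NC was 1 without array 2, and it was 1 in NPC-NC and 1 in sox10-NC with median scaling. NEUROG1, a proneural factor, was at least 8.86-fold higher in sox10-NC than in LSB (limma adjusted p = 7.2e-09), at least 2.18-fold in NPC-NC (adjusted p = 9.84e-05) and at least 1.43-fold in MS5-NC (adjusted p = 0.00224). NEUROG2, its paralog, rose by a log2 change of 1.68 in MS5-NC (limma adjusted p = 0.000298) and fell by 1.39 in sox10-NC (adjusted p = 0.0016) over LSB. Over sox10-NC, NEUROG1 was lower in NPC-NC (log2 -2.02) and in MS5-NC (-2.63) and NEUROG2 was higher (2.25 and 3.07), with limma adjusted p = 2.16e-05, 7.47e-07, 1.74e-05 and 3.29e-07 in that order.

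Of 21 tested zinc finger, homeobox and SoxC factors of differentiating neurons, 13 were higher in NPC-NC, 16 in MS5-NC and 6 in sox10-NC than in LSB, and 1, 1 and 4 were lower. The list's median log2 change was 1.56, 1.88 and 0.30 in that order, or 1.30, 1.52 and 0.26 at bounds. In sox10-NC, 4 were higher and 4 lower without array 2 (median 0.1), and 8 and 4 without array 1 (median 0.19). With median scaling 14 were higher in MS5-NC and 5 in sox10-NC. INSM1, a zinc finger factor of neuronal and endocrine precursors, rose over LSB by a log2 change of 3.95 in NPC-NC, 4.34 in MS5-NC and 3.51 in sox10-NC (limma adjusted p = 7.75e-07, 1.5e-07 and 8.78e-07). EOMES, a T-box factor of intermediate progenitors in cortex, rose by a log2 change of 4.80 in NPC-NC and 4.99 in MS5-NC over LSB (limma adjusted p = 7.95e-10 and 1.5e-10), and was at least 1.23-fold lower in sox10-NC, where no array detected it (adjusted p = 0.000345). POU4F1 and ISL1, homeobox factors of sensory neurons, rose by a log2 change of 5.06 and 4.88 in sox10-NC over LSB (limma adjusted p = 9.44e-08 and 1.08e-07). ISL1 also rose by a log2 change of 2.43 in NPC-NC and 3.23 in MS5-NC (limma adjusted p = 0.000424 and 1.76e-05), whereas POU4F1 was not called there (log2 0.09 and 1.02, adjusted p = 0.898 and 0.0768).

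Of 13 tested neuron markers, 10 were higher in NPC-NC, 10 in MS5-NC and 7 in sox10-NC than in LSB, and 0, 0 and 2 were lower. The median was 2.13, 2.44 and 1.19, or 2.16, 2.44 and 0.99 at bounds. In sox10-NC, 5 were higher and 3 lower without array 2 (median 0.81), and 5 and 3 with median scaling (median 0.87). DCX, a microtubule protein of migrating neurons, rose by a log2 change of 2.99, 3.56 and 1.45 in these groups (limma adjusted p = 1.15e-06, 9.57e-08 and 0.000869). SYT1, a synaptic vesicle protein, was detected on no sox10-NC array and was at least 4.02-fold lower there than in LSB (limma adjusted p = 4.87e-07). MAP2, a dendritic protein, fell in sox10-NC by a log2 change of 2.08 (limma adjusted p = 0.000107). Among 6 tested neuroendocrine genes, all 6 were higher in NPC-NC and in MS5-NC, and 3 in sox10-NC, than in LSB, with medians of 2.30, 2.90 and 1.38. GNRH1, which encodes gonadotropin-releasing hormone, averaged 8.08 ± 0.26 in NPC-NC and 11.01 ± 0.40 in MS5-NC, against 6.01 ± 0.43 in sox10-NC and 6.30 ± 0.25 in LSB (SD, n = 3 each). It was the one gene of all the lists called in NPC-NC over MS5-NC, lower by a log2 change of -2.93 in NPC-NC (limma adjusted p = 2.54e-05).

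Of 9 tested repressors of neuronal genes, 2 were higher in NPC-NC, 2 in MS5-NC and 3 in sox10-NC than in LSB, and 0, 1 and 1 were lower, with medians of 0.36, 0.58 and 0.76 (0.47, 0.58 and 0.76 at bounds). With median scaling 1 was higher in MS5-NC and 1 lower in NPC-NC. REST, the best known of them, was detected on no array. HES5, a Notch target that holds progenitors, fell by a log2 change of 6.13 in sox10-NC over LSB (limma adjusted p = 2.27e-09) and was not called in NPC-NC (log2 0.31, adjusted p = 0.588) or MS5-NC (0.18, adjusted p = 0.746). Of 10 tested neural progenitor markers, 1 was higher and 1 lower in NPC-NC, 2 were higher and 1 lower in MS5-NC, and 0 were higher and 6 lower in sox10-NC, all over LSB, and 2 were lower in each of NPC-NC and MS5-NC and 1 higher in MS5-NC with median scaling. Their median log2 change was 0.13, 0.25 and -3.53, or 0.15, 0.24 and -3.11 at bounds, and with median scaling it was -0.20 in NPC-NC and -0.24 in MS5-NC. A list of 11 peripheral neuron markers had 4 tested genes. Of these, 2, 3 and 2 were higher in NPC-NC, MS5-NC and sox10-NC than in LSB, with medians of 2.13, 3.54 and 2.75 (1.70, 3.11 and 4.88 at bounds). HAND2 and TLX3 were detected on no array, and TH passed the filter only through NPC-NC and MS5-NC. Of 7 tested mesenchyme markers, 5 were higher and 2 lower in each of NPC-NC and MS5-NC, and 1 higher and 2 lower in sox10-NC, with medians of 2.37, 2.70 and 0.52 (1.73, 2.70 and 0.26 at bounds). A list of 6 pluripotency markers had 3 tested genes, and POU5F1 and NANOG were detected on no array. Of the 3, 2 were lower in each of NPC-NC and MS5-NC and 0 in sox10-NC, with medians of -3.14, -2.47 and 0.32 (-2.73, -2.47 and 0.32 at bounds). GAP43, NOVA1, INSM1, POU4F1, ISL1, HES5 and LIN28A stand in 2 lists each.

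**Figure D4:**
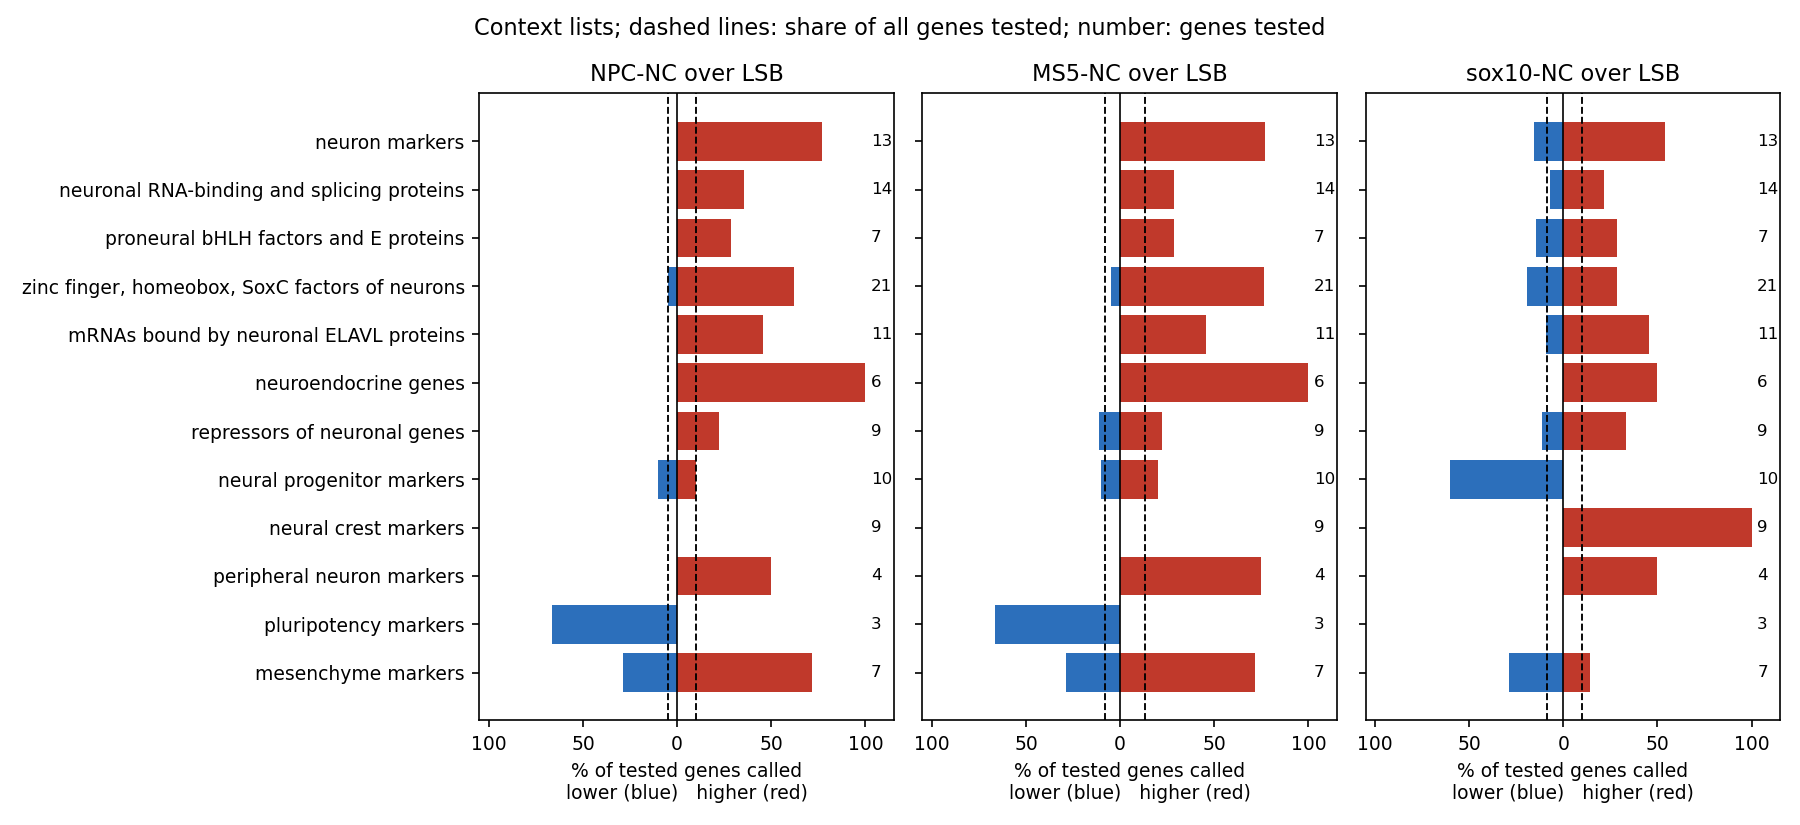
Share of each list's tested genes called higher (red, right) or lower (blue, left) over LSB in NPC-NC, MS5-NC and sox10-NC, in percent, with the number of genes tested at the right and dashed lines at the share over all genes. All 9 neural crest markers, SOX10 among them, were higher in sox10-NC and 0 were called in the other groups. Of these 9, SOX10, TFAP2B and FOXD3 passed the filter only through the sox10-NC arrays. Neuron markers were higher at 10, 10 and 7 of 13, and at 5 in sox10-NC with median scaling, which is not drawn.

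The genes whose levels over the 12 arrays were most like a member's were ranked by Pearson's r, as a description. The ranking took tested genes outside the members and left out uncharacterised symbols (LOC, open reading frame, FLJ, KIAA, FAM and antisense names). For ELAVL3 they were STMN3 (r = 0.99), OLFM1 (0.976) and TMEM145 (0.975), and for MYT1 they were RFTN1 (0.977), RUSC2 (0.976) and MAP1B (0.971). NHLH2 was closest to FSTL5 (0.957), SLC25A25 (0.954) and VSTM2L (0.951), and NHLH1 to SULT1A1 (0.959), HERC1 (0.952) and FOS (0.943). ONECUT2 was closest to SMCR5 (0.953), CHD7 (0.948) and TENM4 (0.943), and ELAVL2 to NCBP2 (0.925), GLDN (0.919) and PPP1R10 (0.899). The 12 points share 4 groups and 1 normalisation.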

How the data were processed

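Per the labels' protocols, Trizol RNA was hybridised to Illumina bead arrays, and the submitters' processing notes name GenomeStudio. The table deposited by the authors holds, per the file headers, an unnormalised mean bead intensity (the signal), a detection p-value and a bead count for each of 47322 probes on 12 arrays. The authors' series matrix gives processed intensity values, a signal made by steps that are not stated, and served as an alternative. Probes were named through the array annotation and RefSeq symbols: 30113 had 1 gene, 8 several and 17201 none.

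Signal was corrected and normalised with neqc (limma 3.58.1, R 4.3.3, offset 16). Probes with a detection p under 0.01 on at least 3 arrays were kept (18427, of which 14790 had 1 gene), and the brightest detected probe by mean level stood for each gene. All 12 arrays were fitted together with lmFit and eBayes, and 6 comparisons were tested two-sided with Benjamini-Hochberg adjustment over 11280 genes. The test was checked on simulated data. Left out were probes with several genes or none, and bead standard errors.

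Beside the members and their paralogs, the genes named were up to 3 per list, comparison and direction, and the 3 most alike per member. From some lists fewer are printed, and values that did not pass are given for genes named in another comparison. The members and lists were chosen with earlier results of these data known. Promoter sequences are RefSeq, GRCh38.p14. Alternatives covered background, scaling, filters, probe choice, the replicate block, the groups fitted and each array left out.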

Additional observations from a re-analysis of the deposited data

Results flagged for a closer look

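The second ELAVL3 probe, which the gene test did not use, carried signal on every array of both HNK1+/p75+ groups and on no LSB array. It averaged 6.44 ± 0.20 in NPC-NC and 6.54 ± 0.23 in MS5-NC, against 4.61 ± 0.17 in LSB (SD, n = 3 each). A probe was flagged if detected on all 3 arrays of a group and on no LSB array, so means above LSB follow from that rule. Groups of 3 arrays are too small for a test of single outlying arrays, so the low sox10-NC array 1 and the high array 2 are given above as values.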

How the results depend on the processing

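Over the 36 member changes (6 genes in 6 comparisons), 805 of 852 alternative values kept direction and call, 29 kept direction and lost the call, 6 gained it and 12 changed sign, all 12 of them in changes that were not called. A change not called in the main fit could not lose a call, so the share that kept both is no measure of robustness. Without background correction alone, 6 calls were lost. Members called numbered 3 in NPC-NC, 3 in MS5-NC and 2 in sox10-NC over LSB without background correction, 3 in NPC-NC over LSB with an offset of 50, and 1 in NPC-NC over sox10-NC with no filter on dim probes and 1 with only those groups fitted, where ELAVL3 was lost. Leaving out 1 array gave 4 to 5 members in NPC-NC, 5 to 5 in MS5-NC and 3 to 4 in sox10-NC over LSB, 1 to 3 in NPC-NC and 3 to 3 in MS5-NC over sox10-NC, and 0 to 0 in NPC-NC over MS5-NC. Signs changed in sox10-NC over LSB for NHLH2 (-0.12 with median scaling, -0.01 with the series matrix, -0.08 without LSB array 1, and -0.75 to 0.52 over single arrays left out) and MYT1 (0.04 without LSB array 3, range -0.70 to 0.44). They changed in NPC-NC over sox10-NC for ONECUT2 (-0.05 without NPC-NC array 2, range to 0.83, and -0.12 with another probe), in MS5-NC over sox10-NC for NHLH1 (-0.21 without sox10-NC array 1, range to 0.67) and ONECUT2 (0.29 without MS5-NC array 2, range from -0.93), and in NPC-NC over MS5-NC for ELAVL2 (-0.01 without MS5-NC array 2 and -0.09 without NPC-NC array 3, range to 0.39). The cause was not tested. Leaving out an array can also change which ONECUT2 probe stands for the gene. NHLH2 in NPC-NC over LSB was also lost with the series matrix (adjusted p = 0.053), no filter (0.134) and the mean over probes (0.0947) in limma. Same-numbered arrays shared little deviation (18 pairs, correlation -0.088 to 0.179, median -0.009, against -0.208 to 0.114 for 36 other pairs). The highest values were between NPC-NC and sox10-NC, at 0.179 for array 1 and 0.148 for array 2. Such correlations cannot show whether same-numbered arrays were made in parallel, so pairing stays unknown. The fit with the replicate block called 5, 5, 4, 2, 3 and 0 members in the comparisons in the order of the report, as without it. The median log2 change of all genes was -0.13, -0.27, -0.34, 0.19, 0.06 and 0.14 with median scaling, against 0.01, 0, -0.02, 0.01, 0 and 0.01 with quantile normalisation. With it the median of the neural progenitor markers was -0.20 in NPC-NC and -0.24 in MS5-NC over LSB, against 0.13 and 0.25 with quantile normalisation. Genes called over the whole array in that order numbered 1696, 2358, 2077, 1583, 1955 and 9. They were 616, 966, 820, 634, 823 and 3 without background correction, 950, 1449, 1260, 947 and 1200 in the first 5 with an offset of 50, and 3231, 4358, 3757, 2497 and 3296 with no minimum fold. In NPC-NC over MS5-NC they were 15 with median scaling, 4 with no filter, 4 with only those groups fitted and 6 with the replicate block, and leaving out 1 array gave 33 without NPC-NC array 1, 23 without MS5-NC array 1 and 3 to 11 otherwise. Signal near background limits ELAVL4, NHLH1 in LSB and the second NHLH2 probe.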
